A study of Homo sapiens with 6 samples.

Results

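The genes described here encode the matrix metalloproteinases (MMP), the ADAM and ADAMTS metalloproteinases, the ADAMTS-like proteins (ADAMTSL) and the tissue inhibitors of metalloproteinases (TIMP). They were taken by symbol from the first column of the deposited count table, and 74 of its 59653 gene symbols matched: 24 MMP, 22 ADAM, 19 ADAMTS, 5 ADAMTSL and 4 TIMP genes. The libraries came from PA1, an established human ovarian teratocarcinoma line labelled wildtype, so all results rest on 1 cell line. Cells in adherent culture received either a negative control siRNA or siRNA against SOX2, a pluripotency transcription factor. Against SOX2 the series lists 2 siRNAs, with no statement on pooling. After 24 h the cells of both groups were moved onto poly-HEMA, a coating that prevents attachment, and RNA was taken 72 h later. Each group had 3 libraries, numbered 1 to 3, with total counts between 25152313 and 32753184. The labels do not say whether the replicates were separate cultures, so the p-values measure the spread between these libraries, which may be technical.

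All of these enzymes are zinc-dependent endopeptidases of the metzincin clan. MMPs are made as inactive precursors and, once activated, cut collagens, gelatin and other matrix and surface proteins; the membrane-type MMPs act at the cell surface. ADAMs are membrane-bound and shed the outer parts of growth factors, receptors and adhesion molecules, although several family members lack the catalytic motif. ADAMTS enzymes are secreted, and many cut proteoglycans such as versican and aggrecan, while ADAMTS-like proteins share their ancillary domains and have no protease domain. TIMPs bind the active site of MMPs, and TIMP3 also inhibits several ADAM and ADAMTS enzymes. In tumours of the ovary and in early embryonic cells these families are known for matrix turnover and for the release of signalling ligands.

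Values by library stand in the order of replicates 1 to 3 within each group. SOX2 itself had 245, 265 and 256 CPM with control siRNA and 51.8, 54.9 and 50.6 CPM with SOX2 siRNA, where CPM is the count scaled to library size, with TMM normalization. It fell from 255 ± 10.1 CPM in control to 52.5 ± 2.21 CPM (SD, n = 3 each), with a log2 fold change of -2.28 (SE 0.0437, edgeR adjusted p = 5.97e-16). Of 8 pluripotent-cell markers, 7 were tested and 4 were higher after SOX2 siRNA: POU5F1, LIN28A, LIN28B and DNMT3B. SALL4, DPPA4 and L1TD1 were neither higher nor lower (log2 fold changes of -0.07, -0.37 and -0.14), and TDGF1 had at most 3 counts in each library. Summed levels were 1480.0 to 1514 CPM in the controls and 2112 to 2137 CPM in SOX2 siRNA libraries. LIN28A alone was at 706 ± 3.61 and 1148 ± 10.4 CPM. Summed levels of the fibroblast, epithelial and endothelial lists also differed by group. Of 8 fibroblast markers, 5 were tested and 4 were higher, COL1A1, PDGFRA, THY1 and S100A4, while LUM was neither higher nor lower. DCN and COL3A1 were not tested, with at most 4 and 8 counts in any library, and FAP was at most 3 counts. The sums of the fibroblast list were 415 to 460.0 CPM in the controls and 543 to 580.4 CPM in SOX2 siRNA libraries. COL1A1 alone was at 282 ± 24.3 and 358 ± 26.2 CPM. All 6 epithelial markers were tested and 2, KRT8 and KRT18, were higher, while EPCAM, CDH1, KRT19 and CLDN4 were neither higher nor lower. Their sums were 345 to 389 CPM in the controls and 477 to 513 CPM in SOX2 siRNA libraries. Of 6 endothelial markers, 5 were tested and all 5 were lower, with CLDN5 at 0. Their sums were 126 to 131 CPM in the controls and 94.8 to 98.7 CPM in SOX2 siRNA libraries. Among all 17592 tested genes, 14.8% were higher and 13.4% lower at an edgeR adjusted p under 0.05. Of 6 leukocyte markers, 3 were tested and 1, CD14, was higher (edgeR adjusted p = 0.0428). CD14 had 14, 8 and 10 counts with control siRNA and 21, 20 and 21 counts with SOX2 siRNA. It reached the count filter of 0.333 CPM in 2 control and 3 SOX2 siRNA libraries, so throughout only the group where it was higher. The leukocyte sums overlapped, at 3.29 to 15.5 CPM in the controls and 2.35 to 18.9 CPM in SOX2 siRNA libraries. PTPRC, CD3E and MS4A1 had at most 3 counts in each library. The part of these marker changes in the results below was not tested. In bulk RNA, fewer cells of a kind and less RNA per cell cannot be told apart.

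Several surface-acting and secreted proteases rose after SOX2 siRNA, and a smaller set fell. ADAMTS9 and ADAMTS6 rose 2.53-fold and 2.29-fold, the membrane-type genes MMP14, MMP25 and MMP16 rose 1.62-fold, 1.70-fold and 1.59-fold, and the inhibitors TIMP2, TIMP3 and TIMP4 rose as well. ADAMTS1, ADAMTS4, ADAMTSL3, ADAM23, ADAM17 and MMP15 fell. Of the 74 genes, 49 had enough counts to be tested. By edgeR's quasi-likelihood test and Benjamini-Hochberg adjustment across every gene tested, 22 of the 49 (44.9%) had an adjusted p under 0.05, beside 28.2% of all 17592 genes tested. A gene past this threshold is termed called. Of the 22, 16 were higher, beside 14.8% of all tested genes, and 6 were lower, beside 13.4%. The median log2 fold change of the 49 was 0.09, against -0.00085 over all tested genes. For 29 of the 49 no CPM value of one group reached into the other, beside 41.8% of all tested genes. A called change of at least 2-fold was found for 3 of the 49, ADAMTS9, ADAMTS6 and MMP7, beside 3.17% of all tested genes. The families were chosen with earlier results of these data known, so these shares cannot be read as an excess over all genes.

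By family, 6 of 14 tested MMP genes were higher and 1 lower, 3 of 4 TIMP genes were higher and none lower, 3 of 13 ADAM genes were higher and 2 lower, 4 of 14 ADAMTS genes were higher and 2 lower, and 1 of 4 ADAMTSL genes was lower. The count filter asked for 3 libraries above 0.333 CPM, and 4 of the 49 reached it throughout 1 group alone: MMP7 and MMP1 in the SOX2 siRNA libraries, and ADAMTSL1 and ADAM32 in the control libraries. Of these 4, MMP7 was called, and with 1 control library over the cutoff it was tested because of its higher level after SOX2 siRNA.

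**Figure D1:**
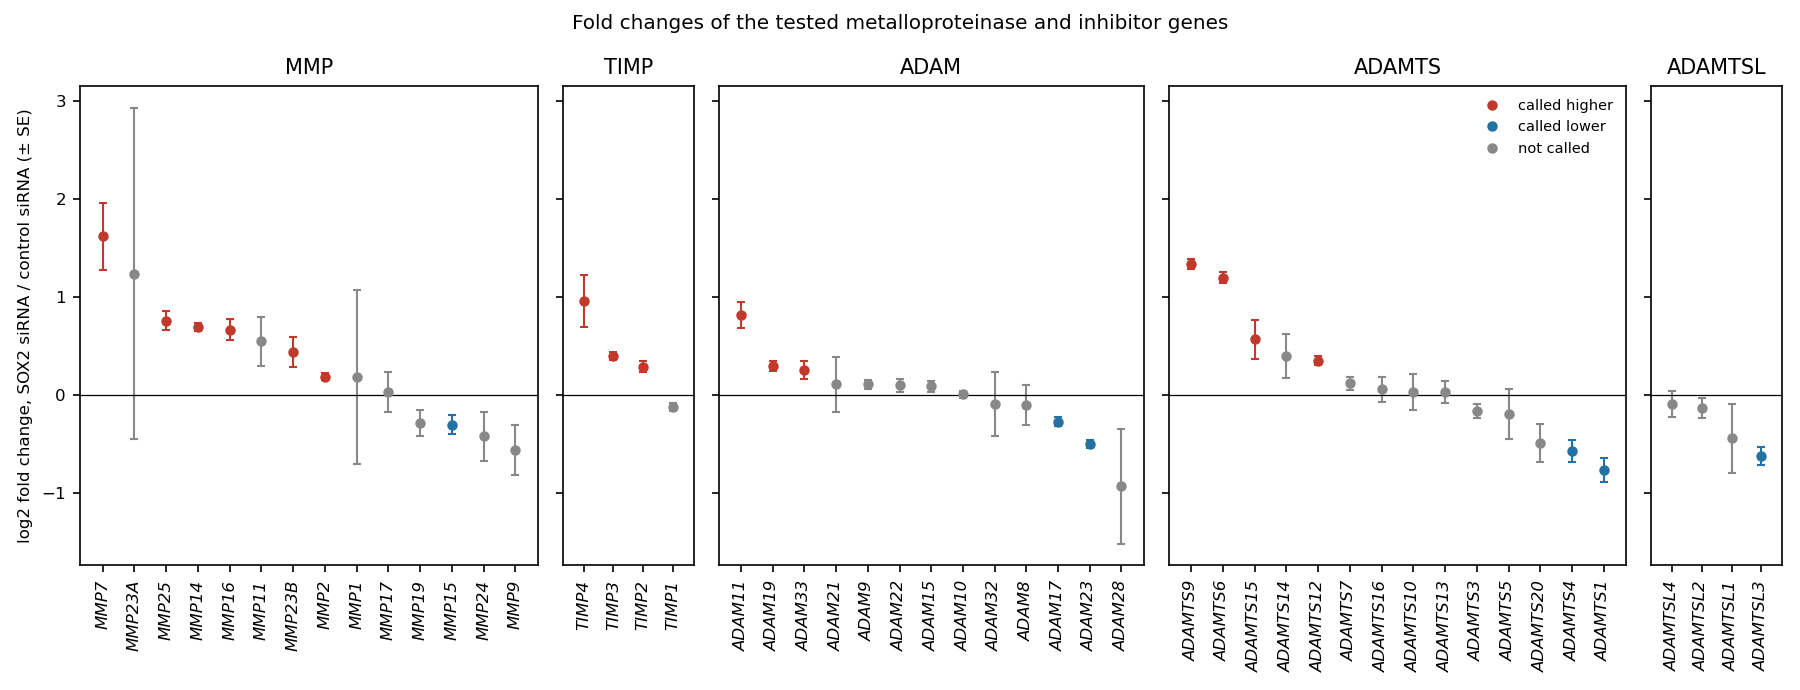
Log2 fold change (SOX2 siRNA over control siRNA, vertical axis) of the 49 tested genes, by family. Bars are standard errors, calculated back from the log2 fold change and the F statistic of the edgeR test. Red and blue mark genes called higher and lower, grey marks genes not called. ADAMTS9 and ADAMTS6 stand above 1 with short bars. MMP23A, MMP1 and ADAM28, which had few counts and spread widely between libraries of the same group, have the longest bars.

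Promoter sequences are shown for 5 of the called genes, 3 that rose and 2 that fell, because these are the regions next to the start sites of genes that moved in opposite directions. They are the 250 bases upstream of the RefSeq start site (GRCh38.p14), read 5′ to 3′ in the direction of the gene. Capitals mark matches on either strand to ACAATG or ACAAAG (cores bound by SOX proteins), ATGCAAAT (the octamer bound by POU factors), TGANTCA (the AP-1 site known from MMP promoters) or TATAAA (the TATA box).
ADAMTS6, GRCh38.p14, chr5:65481921-65482170, minus strand: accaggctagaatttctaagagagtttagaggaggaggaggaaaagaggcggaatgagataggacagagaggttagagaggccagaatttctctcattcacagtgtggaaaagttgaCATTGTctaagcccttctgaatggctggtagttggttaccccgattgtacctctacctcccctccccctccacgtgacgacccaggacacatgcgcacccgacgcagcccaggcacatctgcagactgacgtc
MMP14, GRCh38.p14, chr14:22836335-22836584, plus strand: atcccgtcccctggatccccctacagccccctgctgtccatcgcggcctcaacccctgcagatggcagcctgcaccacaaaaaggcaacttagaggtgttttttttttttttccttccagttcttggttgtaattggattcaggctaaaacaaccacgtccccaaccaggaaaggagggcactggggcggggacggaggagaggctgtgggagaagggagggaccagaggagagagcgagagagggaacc
MMP7, GRCh38.p14, chr11:102530748-102530997, minus strand: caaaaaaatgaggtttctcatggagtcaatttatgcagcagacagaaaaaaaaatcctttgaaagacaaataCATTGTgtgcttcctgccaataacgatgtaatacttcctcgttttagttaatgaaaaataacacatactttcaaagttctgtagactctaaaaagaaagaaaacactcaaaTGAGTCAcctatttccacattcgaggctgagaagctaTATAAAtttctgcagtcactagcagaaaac
ADAM23, GRCh38.p14, chr2:206443282-206443531, plus strand: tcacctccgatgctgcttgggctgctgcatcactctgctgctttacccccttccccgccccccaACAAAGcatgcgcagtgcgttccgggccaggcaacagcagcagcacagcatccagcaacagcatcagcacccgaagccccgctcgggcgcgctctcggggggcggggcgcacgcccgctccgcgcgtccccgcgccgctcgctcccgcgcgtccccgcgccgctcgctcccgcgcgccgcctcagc
ADAMTSL3, GRCh38.p14, chr15:83653873-83654122, plus strand: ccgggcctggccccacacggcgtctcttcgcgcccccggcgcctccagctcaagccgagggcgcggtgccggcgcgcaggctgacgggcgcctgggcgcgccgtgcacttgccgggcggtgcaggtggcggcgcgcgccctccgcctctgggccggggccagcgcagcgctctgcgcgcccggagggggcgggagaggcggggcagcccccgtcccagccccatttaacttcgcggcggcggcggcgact

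The MMP7 window held 3 matches, CATTGT beginning 178 bases upstream of the start site, TGAGTCA at 67 and TATAAA at 30. The ADAMTS6 window held CATTGT at 133 bases upstream, the reverse complement of ACAATG, and the ADAM23 window held ACAAAG at 186. No match to these letters was found in the MMP14 and ADAMTSL3 windows, which says nothing of binding by the factors. GC content of the windows was 33.6% for MMP7, 52.4% for ADAMTS6, 56.8% for MMP14, 73.6% for ADAM23 and 80.8% for ADAMTSL3. Windows were matched by symbol for 44 of the 74 genes, among them 8 of the 16 called higher and 4 of the 6 called lower. For these genes 1 window each was used, while the percentages over all genes count every window. ACAATG was present in 4 of the 44 (2 of the 8 higher and 0 of the 4 lower), beside 9.29% of 35116 windows of all genes. ACAAAG was present in 5 of the 44 (0 of the 8 and 1 of the 4), beside 13.7%. The octamer was present in 0 of the 44, beside 1.63%, TGANTCA in 4, beside 6.57%, and TATAAA in 8, beside 10.7%. The 4 genes with TGANTCA were ADAMTS12, MMP7, MMP10 and MMP20. The printed windows were picked by hand. They include every called gene whose window matched ACAATG or ACAAAG, which were ADAMTS6, MMP7 and ADAM23. These counts describe letters in a window and carry no test.

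ADAMTS9, which encodes a secreted protease that cuts versican and aggrecan, had the largest gain in CPM among these genes. The gene lies on chromosome 3 (ENSG00000163638.13, chr3:64515654-64688000, minus strand, GRCh38). It had 92.6, 91.6 and 93.7 CPM with control siRNA and 219.8, 226 and 258 CPM with SOX2 siRNA. The control libraries were within a narrow band and every SOX2 siRNA library was above them, replicate 3 being the highest. The level rose from 92.6 ± 1.03 CPM in control to 234 ± 20.2 CPM (SD, n = 3 each) (log2 fold change 1.34, SE 0.0534, edgeR adjusted p = 4.89e-10). Exons of ADAMTS9 overlap those of ADAMTS9-AS1 on the opposite strand, whose own level was 0.0367 ± 0.0403 and 0.0317 ± 0.0310 CPM in control and SOX2 siRNA libraries. Whether the counting used strand is not stated in the sources used here; without strand, reads of overlapping genes cannot be told apart. ADAMTS6 (ENSG00000049192.14, chr5:65148736-65481920, minus strand), whose promoter is printed above, encodes a secreted protease closely related to ADAMTS10. It had 22.1, 24.4 and 24.2 CPM with control siRNA and 56.7, 50.8 and 54.2 CPM with SOX2 siRNA, and the groups did not overlap. It rose from 23.6 ± 1.30 CPM in control to 53.9 ± 2.95 CPM (SD, n = 3 each) (log2 fold change 1.20, SE 0.0567, edgeR adjusted p = 3.66e-11). ADAMTS10 did not pass the test, at 2.18 ± 0.389 and 2.24 ± 0.290 CPM (edgeR adjusted p = 0.922).

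The ADAMTS proteases that cut proteoglycans moved in both directions: of 6 tested, 2 were higher, ADAMTS9 and ADAMTS15, and 2 lower, ADAMTS1 and ADAMTS4. ADAMTS1, a versican-cutting enzyme, had 7.12, 5.99 and 6.47 CPM with control siRNA and 3.28, 4.21 and 4.05 CPM with SOX2 siRNA. It fell from 6.53 ± 0.569 CPM in control to 3.85 ± 0.496 CPM (SD, n = 3 each) (log2 fold change -0.76, SE 0.124, edgeR adjusted p = 1.49e-04). ADAMTS4, known as an aggrecanase, had 8.33, 7.02 and 8.65 CPM with control siRNA and 5.66, 4.67 and 5.89 CPM with SOX2 siRNA and fell from 8.0 ± 0.860 CPM in control to 5.41 ± 0.650 CPM (SD, n = 3 each) (log2 fold change -0.57, SE 0.114, edgeR adjusted p = 0.00106). In both genes each SOX2 siRNA library was below each control library. ADAMTS15, another versican-cutting enzyme, had 2.64, 1.56 and 2.87 CPM with control siRNA and 2.95, 3.80 and 3.85 CPM with SOX2 siRNA, so control replicate 2 was low and the gap between the groups was narrow. It rose from 2.35 ± 0.701 CPM in control to 3.53 ± 0.508 CPM (SD, n = 3 each) (log2 fold change 0.57, SE 0.199, edgeR adjusted p = 0.0441). That call was lost without control replicate 1 or 2 or SOX2 siRNA replicate 2 or 3, with log2 fold changes of 0.66, 0.36, 0.51 and 0.51 (edgeR adjusted p = 0.0704, 0.17, 0.149 and 0.122). ADAMTS20 had 2.50 ± 0.310 and 1.78 ± 0.403 CPM in the 2 groups (edgeR adjusted p = 0.0756), and ADAMTS5 0.804 ± 0.0123 and 0.704 ± 0.0290 CPM (adjusted p = 0.633); neither was called, except ADAMTS20 without SOX2 siRNA replicate 2 (log2 fold change -0.64, adjusted p = 0.0482). On chromosome 21 ADAMTS1 (21:26835747-26845409) and ADAMTS5 (21:26917912-26966513) lie close together on the minus strand, GRCh38.

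ADAMTS12, which cuts the cartilage oligomeric matrix protein, rose from 44.2 ± 0.311 CPM in control to 56.1 ± 2.16 CPM (SD, n = 3 each) (log2 fold change 0.35, SE 0.0454, edgeR adjusted p = 1.61e-05), with 44.5, 43.9 and 44.1 CPM with control siRNA and 53.6, 57.6 and 57.2 CPM with SOX2 siRNA. Its 3 control libraries were almost level and all 3 SOX2 siRNA libraries were above them. The remaining tested genes of this kind were not called: ADAMTS7 (log2 fold change 0.12), ADAMTS10 (0.03), ADAMTS13 (0.03), the protease of von Willebrand factor, and ADAMTS16 (0.06), with edgeR adjusted p between 0.237 and 0.922. Of the procollagen N-propeptidases, which trim fibrillar procollagens, 2 were tested and none was called. ADAMTS3 had 16.5 ± 0.917 and 14.7 ± 0.561 CPM (edgeR adjusted p = 0.0894), ADAMTS14 had 1.19 ± 0.0662 and 1.57 ± 0.378 CPM (adjusted p = 0.209), and ADAMTS2, with at most 7 counts per library, was not tested. Without control replicate 1, ADAMTS3 was called (log2 fold change -0.21, adjusted p = 0.0467). ADAMTSL3, a matrix protein without a protease domain, fell from 9.67 ± 0.610 CPM in control to 6.30 ± 0.129 CPM (SD, n = 3 each) (log2 fold change -0.62, SE 0.0905, edgeR adjusted p = 5.56e-05). It had 8.97, 10.02 and 10.03 CPM with control siRNA and 6.36, 6.15 and 6.39 CPM with SOX2 siRNA, and the SOX2 siRNA libraries lay within a narrow band below the controls. ADAMTSL2, the ADAMTSL gene with the highest CPM, was at 20.3 ± 3.15 and 18.6 ± 0.936 CPM, with overlapping groups (adjusted p = 0.373), and was called without control replicate 2 (log2 fold change -0.24, adjusted p = 0.0383). ADAMTSL4 had a log2 fold change of -0.09 (adjusted p = 0.673) and ADAMTSL1 of -0.44 (adjusted p = 0.403).

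**Figure D2:**
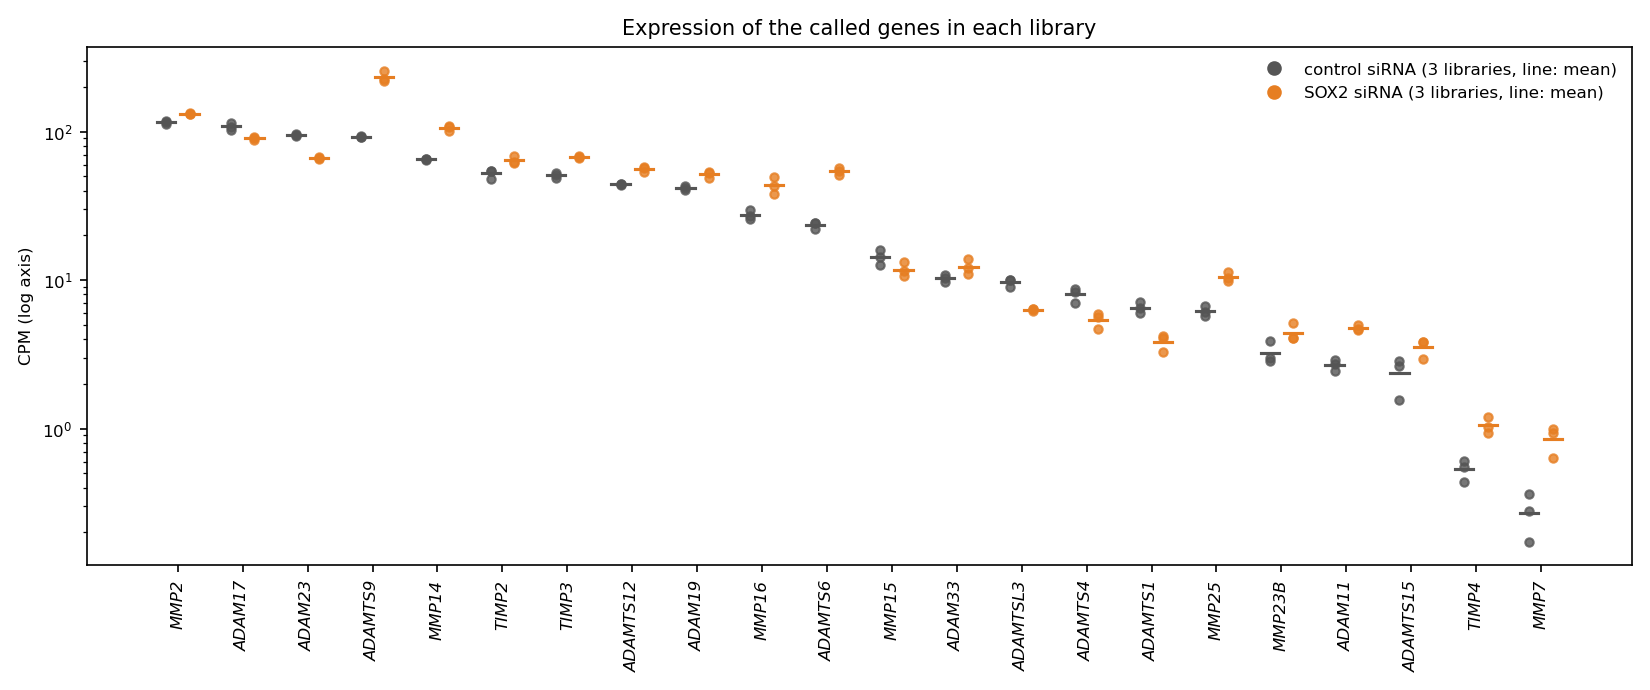
CPM (log axis) of the 22 called genes in each of the 6 libraries, grey for control siRNA and orange for SOX2 siRNA, with lines at the group means; genes are ordered by their control mean. The orange points of ADAMTS9 and ADAMTS6 lie well above the grey ones, and the points of MMP15 and ADAM33 lie close to or across those of the other group.

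Membrane-type MMPs, which act at the cell surface and can activate other MMPs, were called in 4 of 6 genes, 3 higher and 1 lower. MMP14 (ENSG00000157227.12, chr14:22836557-22849027, plus strand), the main activator of the MMP2 precursor, had 65.8, 64.4 and 65.7 CPM with control siRNA and 107, 102 and 109 CPM with SOX2 siRNA. The groups were far apart relative to the spread within each, and the level rose from 65.3 ± 0.772 CPM in control to 106 ± 3.81 CPM (SD, n = 3 each) (log2 fold change 0.70, SE 0.0409, edgeR adjusted p = 6.52e-10). MMP25, a protease tethered to the membrane by a lipid anchor, had 6.73, 5.71 and 6.12 CPM with control siRNA and 11.4, 10.4 and 9.84 CPM with SOX2 siRNA and rose from 6.19 ± 0.512 CPM in control to 10.5 ± 0.788 CPM (SD, n = 3 each) (log2 fold change 0.76, SE 0.0954, edgeR adjusted p = 9.21e-06). Its exons overlap those of MMP25-AS1 on the opposite strand, which was at 7.94 ± 0.433 and 8.90 ± 0.610 CPM and was not called (edgeR adjusted p = 0.206). MMP16, a transmembrane relative of MMP14 that also activates the MMP2 precursor, had 25.7, 29.8 and 27.2 CPM with control siRNA and 37.7, 43.3 and 49.8 CPM with SOX2 siRNA; the SOX2 siRNA libraries spread more than the controls and did not overlap them. It rose from 27.5 ± 2.08 CPM in control to 43.6 ± 6.06 CPM (SD, n = 3 each) (log2 fold change 0.67, SE 0.109, edgeR adjusted p = 0.00383). AC090578.1, whose exons overlap those of MMP16 on the opposite strand, was at 0.210 ± 0.0289 and 0.358 ± 0.0916 CPM.

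MMP15, another transmembrane type, was the lower one, with 16.1, 12.7 and 14.4 CPM with control siRNA and 11.4, 10.6 and 13.2 CPM with SOX2 siRNA. The groups overlapped, since SOX2 siRNA replicate 3 was above control replicate 2. It fell from 14.4 ± 1.70 CPM in control to 11.7 ± 1.29 CPM (SD, n = 3 each) (log2 fold change -0.30, SE 0.0967, edgeR adjusted p = 0.0315), a call that was lost without control replicate 1 or 3 or SOX2 siRNA replicate 1 or 2 (log2 fold changes of -0.21, -0.30, -0.29 and -0.23, edgeR adjusted p = 0.158, 0.089, 0.0832 and 0.137). MMP17 (1.76 ± 0.348 and 1.81 ± 0.257 CPM) and MMP24 (0.990 ± 0.0181 and 0.738 ± 0.0796 CPM) were not called, with edgeR adjusted p of 0.939 and 0.227. For MMP24 the groups did not overlap, with 0.970, 0.998 and 1.0 CPM with control siRNA and 0.762, 0.649 and 0.803 CPM with SOX2 siRNA.

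Of the gelatinases, which cut denatured collagen and basement membrane collagen, MMP2 was abundant and MMP9 was not. MMP2 had 116, 118 and 113 CPM with control siRNA and 133, 132 and 131 CPM with SOX2 siRNA. All SOX2 siRNA libraries were above all controls by a small margin, and the level rose from 116 ± 2.35 CPM in control to 132 ± 1.03 CPM (SD, n = 3 each) (log2 fold change 0.19, SE 0.0360, edgeR adjusted p = 6.25e-04). MMP9 had 30, 32 and 43 counts with control siRNA and 27, 24 and 25 counts with SOX2 siRNA. SOX2 siRNA libraries were the lower ones in CPM, without overlap, and the difference was not called (1.22 ± 0.293 and 0.824 ± 0.0768 CPM, edgeR adjusted p = 0.112). Without control replicate 1 it was called, with a log2 fold change of -0.75 (adjusted p = 0.0498).

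A run of 9 MMP genes lies side by side on chromosome 11 (11:102520508-102955734, GRCh38), all on the minus strand: MMP7, MMP20, MMP27, MMP8, MMP10, MMP1, MMP3, MMP12 and MMP13. This cluster holds collagenases, stromelysins and matrilysin, several of which are known to be induced in inflamed and wounded tissue. In these cells 2 of the 9, MMP7 and MMP1, had enough counts to be tested. MMP7, the matrilysin whose promoter is printed above, had 12, 7 and 5 counts with control siRNA and 30, 30 and 19 counts with SOX2 siRNA. Every SOX2 siRNA library had more counts than every control library. It rose from 0.272 ± 0.0955 CPM in control to 0.853 ± 0.190 CPM (SD, n = 3 each) (log2 fold change 1.62, SE 0.344, edgeR adjusted p = 0.0017). With at least 10 counts required in every library, MMP7 was not tested. MMP1, the interstitial collagenase, had 51, 28 and 6 counts with control siRNA and 52, 11 and 38 counts with SOX2 siRNA, so both groups held high and low libraries and no change was called (log2 fold change 0.19, SE 0.886, edgeR adjusted p = 0.909). The log2 fold change was -0.28 without control replicate 3 and -0.28 without SOX2 siRNA replicate 1. The libraries low in MMP1, control replicate 3 and SOX2 siRNA replicate 2, were also the lowest in 3 of the 26 tested marker genes, LYZ, EPCAM and the pluripotent-cell marker L1TD1, which were picked out after their values were seen. LYZ had 481, 348 and 61 with control siRNA and 542, 48 and 364 with SOX2 siRNA (counts), and EPCAM had 123, 42 and 25 with control siRNA and 107, 20 and 63 with SOX2 siRNA. L1TD1 had 88, 47 and 24 with control siRNA and 58, 31 and 61 with SOX2 siRNA. The part of this in the MMP1 values was not tested. MMP7 was likewise lowest in control replicate 3 among the controls, with 5 counts, while SOX2 siRNA replicate 2 had 30 counts, as many as replicate 1.

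MMP23B, which encodes a membrane-anchored MMP of unusual domain structure, shares near-identical sequence with its copy MMP23A, annotated as a pseudogene, so the separate counts of the pair are uncertain. MMP23A had 25, 0 and 0 counts with control siRNA and 0, 27 and 34 counts with SOX2 siRNA, and MMP23B had 94, 75 and 113 counts with control siRNA and 155, 131 and 122 counts with SOX2 siRNA. The MMP23A counts fell into 3 libraries at 0 and 3 between 25 and 34, on both sides of the comparison. Summed over both copies the level was 3.61, 2.99 and 3.91 CPM in control and 5.13, 4.89 and 5.22 CPM in SOX2 siRNA replicates 1 to 3, without overlap. MMP23B alone rose from 3.25 ± 0.575 CPM in control to 4.42 ± 0.616 CPM (SD, n = 3 each) (log2 fold change 0.44, SE 0.154, edgeR adjusted p = 0.0399), and the call was lost without control replicate 1 or 2 or SOX2 siRNA replicate 1 or 2 (log2 fold changes of 0.35, 0.39, 0.32 and 0.50, edgeR adjusted p = 0.157, 0.141, 0.165 and 0.0535). Its exons also overlap those of CDK11B on the opposite strand, at 45.0 ± 1.42 and 47.5 ± 0.400 CPM (adjusted p = 0.227). MMP11, a secreted MMP activated by furin, was at 0.723 ± 0.0881 and 1.06 ± 0.0911 CPM without overlap and was not called (adjusted p = 0.112). MMP19 was at 4.76 ± 0.620 and 3.91 ± 0.267 CPM (adjusted p = 0.126).

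All 4 inhibitors were expressed, and their groups did not overlap for any of the 4. TIMP3, which binds the matrix and inhibits ADAM17 and several ADAMTS enzymes besides MMPs, had 51.3, 49.1 and 52.5 CPM with control siRNA and 68.7, 67.0 and 66.1 CPM with SOX2 siRNA. It rose from 51.0 ± 1.75 CPM in control to 67.3 ± 1.3 CPM (SD, n = 3 each) (log2 fold change 0.40, SE 0.0436, edgeR adjusted p = 1.84e-06). TIMP2, which inhibits MMPs and takes part in the activation of the MMP2 precursor by MMP14, had 54.4, 48.2 and 54.2 CPM with control siRNA and 68.8, 61.3 and 62.2 CPM with SOX2 siRNA and rose from 52.3 ± 3.51 CPM in control to 64.1 ± 4.07 CPM (SD, n = 3 each) (log2 fold change 0.29, SE 0.0561, edgeR adjusted p = 9.21e-04). Exons of TIMP2 overlap those of CEP295NL on the same strand, which was at 0.173 ± 0.0315 and 0.107 ± 0.0926 CPM. TIMP4 had 20, 11 and 16 counts with control siRNA and 31, 30 and 36 counts with SOX2 siRNA, every SOX2 siRNA library being above every control. It rose from 0.533 ± 0.0853 CPM in control to 1.05 ± 0.14 CPM (SD, n = 3 each) (log2 fold change 0.96, SE 0.267, edgeR adjusted p = 0.0117), but without control replicate 2 or SOX2 siRNA replicate 3 the adjusted p was 0.053 and 0.0549 (log2 fold changes of 0.85 and 0.86). Exons of TIMP4 overlap those of SYN2 on the opposite strand, at 2.30 ± 0.376 and 2.08 ± 0.125 CPM. TIMP1, an inhibitor with weak action on membrane-type MMPs, had 63.6, 58.4 and 63.3 CPM with control siRNA and 57.3, 56.6 and 56.9 CPM with SOX2 siRNA. The SOX2 siRNA libraries were the lower ones, at 61.8 ± 2.91 and 56.9 ± 0.376 CPM (SD, n = 3), and the difference missed the threshold (log2 fold change -0.12, SE 0.0449, edgeR adjusted p = 0.0569). It passed with upper-quartile scaling (log2 fold change -0.14, adjusted p = 0.026) and without control replicate 2 (-0.16, adjusted p = 0.021).

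ADAMs with the catalytic motif were called in 3 of 9 tested genes, 2 higher and 1 lower. ADAM17, the main sheddase of tumour necrosis factor and of several EGF receptor ligands, had 102, 115 and 108 CPM with control siRNA and 90.2, 88.0 and 91.5 CPM with SOX2 siRNA. It fell from 108 ± 6.24 CPM in control to 89.9 ± 1.75 CPM (SD, n = 3 each) (log2 fold change -0.27, SE 0.0439, edgeR adjusted p = 1.74e-04), without overlap of the groups. Its exons overlap those of AC073195.1 on the opposite strand, at 0.392 ± 0.118 and 0.446 ± 0.134 CPM. ADAM10, the sheddase of Notch receptors and cadherins and the ADAM with the most counts, had 328, 347 and 353 CPM with control siRNA and 346, 344 and 343 CPM with SOX2 siRNA. The groups overlapped, and the log2 fold change was 0.01 (SE 0.0354, edgeR adjusted p = 0.923), near 0 on either side under the other settings. ADAM9 and ADAM15 were at log2 fold changes of 0.11 and 0.09 and were not called (adjusted p = 0.0643 and 0.247). ADAM9 was called without control replicate 3 (0.15, adjusted p = 0.0359) or SOX2 siRNA replicate 2 (0.15, adjusted p = 0.042), and ADAM15 without control replicate 1 (0.16, adjusted p = 0.0365).

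ADAM19, known for processing neuregulins, had 43.2, 40.5 and 42.0 CPM with control siRNA and 48.9, 52.3 and 53.6 CPM with SOX2 siRNA and rose from 41.9 ± 1.38 CPM in control to 51.6 ± 2.44 CPM (SD, n = 3 each) (log2 fold change 0.30, SE 0.0492, edgeR adjusted p = 1.75e-04). Its exons overlap those of CYFIP2 on the opposite strand, which was more abundant and fell, at 167 ± 5.29 and 132 ± 2.63 CPM (edgeR adjusted p = 2.03e-06). ADAM33 had 10.3, 10.9 and 9.72 CPM with control siRNA and 13.9, 10.9 and 12.2 CPM with SOX2 siRNA, with control replicate 2 just below SOX2 siRNA replicate 2. It rose from 10.3 ± 0.568 CPM in control to 12.3 ± 1.51 CPM (SD, n = 3 each) (log2 fold change 0.26, SE 0.0912, edgeR adjusted p = 0.0406), a call lost when control replicate 1, 2 or 3 was left out (log2 fold changes of 0.26, 0.30 and 0.22, adjusted p = 0.0988, 0.0621 and 0.156) or SOX2 siRNA replicate 1 or 3 (0.16 and 0.27, adjusted p = 0.2 and 0.0643). ADAM8 and ADAM21, at 1.83 ± 0.318 and 0.646 ± 0.111 CPM in control libraries, were not called (edgeR adjusted p = 0.771 and 0.814). ADAM28 had 30, 18 and 7 counts with control siRNA and 13, 3 and 14 counts with SOX2 siRNA, and the same libraries were lowest as for MMP1, control replicate 3 and SOX2 siRNA replicate 2 (edgeR adjusted p = 0.285).

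Of the ADAMs without the catalytic motif, 4 were tested. ADAM11, ADAM22 and ADAM23 are surface proteins of neurons that bind secreted LGI proteins. ADAM23, whose promoter is printed above, had 93.0, 95.6 and 94.2 CPM with control siRNA and 66.5, 65.8 and 66.9 CPM with SOX2 siRNA. Both groups were tight and separate, and it fell from 94.3 ± 1.29 CPM in control to 66.4 ± 0.537 CPM (SD, n = 3 each) (log2 fold change -0.50, SE 0.0386, edgeR adjusted p = 2.18e-08). ADAM11 had 2.45, 2.91 and 2.73 CPM with control siRNA and 4.67, 4.64 and 4.95 CPM with SOX2 siRNA and rose from 2.7 ± 0.232 CPM in control to 4.75 ± 0.173 CPM (SD, n = 3 each) (log2 fold change 0.82, SE 0.134, edgeR adjusted p = 1.64e-04). ADAM22 was at 26.5 ± 3.01 and 28.3 ± 0.633 CPM with overlapping groups (edgeR adjusted p = 0.305), and was called without control replicate 2 (log2 fold change 0.19, adjusted p = 0.0423). LGI1, their best known ligand, rose from 9.96 ± 0.406 CPM in control to 27.9 ± 2.18 CPM (SD, n = 3 each) (log2 fold change 1.49, SE 0.0724, edgeR adjusted p = 5.28e-11). ADAM32 was at 0.581 ± 0.0764 and 0.547 ± 0.193 CPM (adjusted p = 0.881).

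The 25 genes that were not tested had little or no signal. In every library 9 were at 0: ADAM2, ADAM5, ADAM6, ADAM7, ADAM29, ADAM30, MMP12, MMP26 and MMP27, of which ADAM5 and ADAM6 are annotated as pseudogenes. A count of 0 allows up to 3 counts, which correspond to between 0.0909 and 0.120 CPM at these depths and cover counting error only. The other 16 had at most 11 counts in any library, and 9 of them at most 3. Of these 16, ADAM12, ADAM18, ADAM20, ADAMTS2, ADAMTS8, ADAMTS17, ADAMTS19, MMP3, MMP8, MMP10, MMP13, MMP20, MMP21 and MMP28 had at most 7 counts in any library, while ADAMTS18 and ADAMTSL5 reached 10 counts somewhere. ADAMTS18 had 5, 11 and 11 counts with control siRNA and 1, 1 and 1 counts with SOX2 siRNA, so 27 counts summed over the control libraries stood against 3 over the SOX2 siRNA libraries, a ratio of 0.104 scaled to library totals (95% exact interval 0.0202 to 0.339, counting error only). In the fit without the count filter, over 33956 genes, its edgeR adjusted p was 3.70e-04. That fit gave smaller edgeR adjusted p-values than the main fit for several called genes, such as ADAM23 (8.34e-27 against 2.18e-08) and ADAM11 (1.59e-06 against 1.64e-04). The ADAMTS18 value is therefore not comparable with those of the main fit. ADAMTSL5 had 1, 6 and 10 counts with control siRNA and 7, 4 and 3 counts with SOX2 siRNA, with both groups spread over the same range (adjusted p = 0.758 in that fit).

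Levels of different genes can be compared only per length, so CPM was divided by the length in kb of all exons of the gene. In control libraries TIMP1 was highest at 40.1 ± 1.89 CPM per kb (SD, n = 3), followed by MMP2 at 23.4 ± 0.477, ADAM10 at 21.2 ± 0.800 and ADAM9 at 19.5 ± 0.966. ADAM23 and MMP14 came next at 14.7 ± 0.201 and 14.6 ± 0.173, which do not differ beyond their spread. TIMP3 was at 11.1 ± 0.381, ADAM17 at 10.1 ± 0.581, TIMP2 at 9.28 ± 0.623 and ADAMTS9 at 8.67 ± 0.0968; over the 3 control libraries the neighbours ADAM10 and ADAM9, TIMP3 and ADAM17, ADAM17 and TIMP2, and TIMP2 and ADAMTS9 overlapped. With the longest transcript as length, TIMP1 stayed first and ADAM9 moved to second place, ahead of MMP2 and ADAM10. After SOX2 siRNA, TIMP1 was at 36.9 ± 0.244 CPM per kb, MMP2 at 26.7 ± 0.209, MMP14 at 23.7 ± 0.854, ADAMTS9 at 22.0 ± 1.89, ADAM10 at 21.3 ± 0.102 and ADAM9 at 21.1 ± 0.965. By exon length, the means of MMP14 and ADAMTS9 were below those of ADAM10 and ADAM9 in control. After SOX2 siRNA they were above them, for ADAMTS9 within its spread, while ADAM23 was at 10.3 ± 0.0837. This change of place depends on the length used. The longest transcripts are 3.732 kb for MMP14, 7.624 kb for ADAMTS9, 11.431 kb for ADAM10 and 3.839 kb for ADAM9. Over these lengths, the MMP14 mean after SOX2 siRNA stayed below those of ADAM10 and ADAM9. The ADAMTS9 mean stayed below that of ADAM9.

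**Figure D3:**
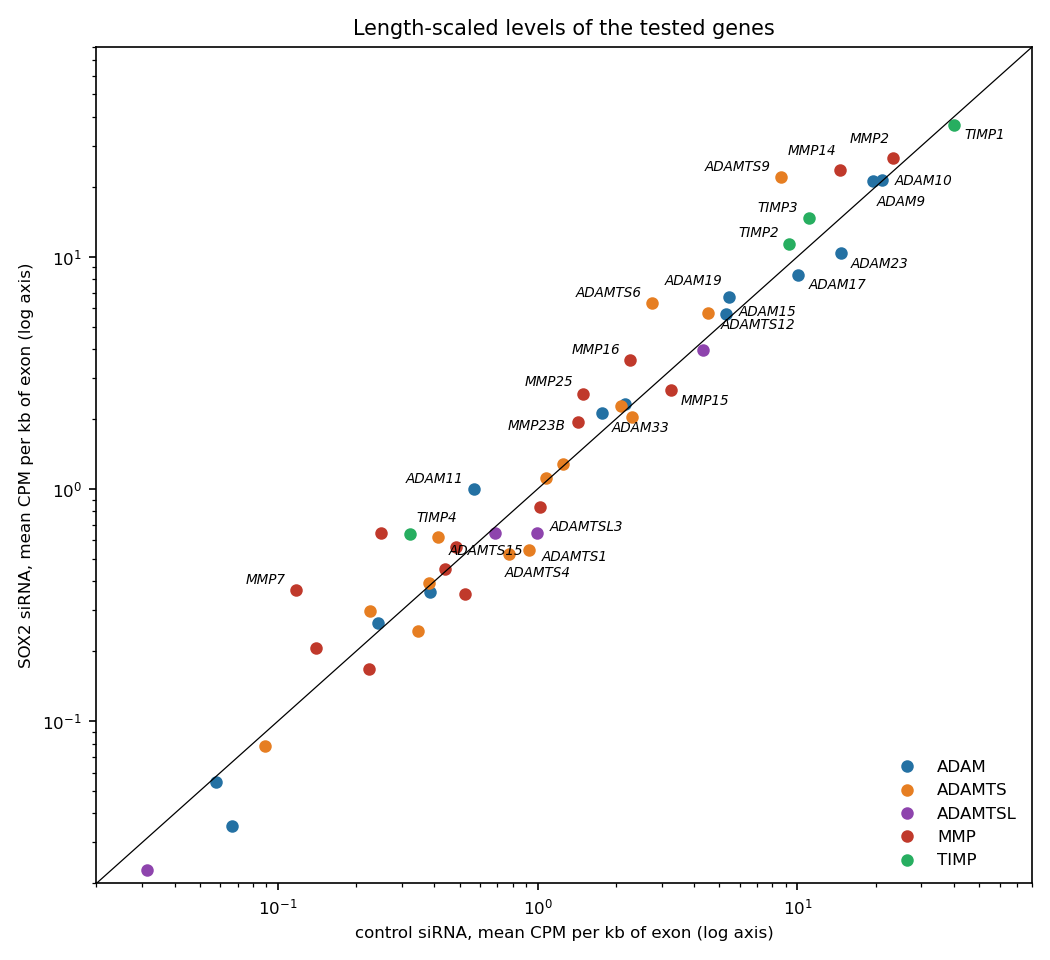
Mean CPM per kb of exon in SOX2 siRNA libraries (vertical, log axis) against control libraries (horizontal, log axis) for the 49 tested genes, coloured by family; the line marks equal levels. Names are given for called genes and for genes above 5 CPM per kb in control. ADAMTS9, ADAMTS6, MMP14 and MMP16 lie above the line and ADAM23, ADAM17 and MMP15 below it.

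Summed per family, these levels describe the make-up of the protease transcripts in each library and carry no test. The 24 MMP genes summed to 51.1, 49.6 and 49.0 CPM per kb in control replicates 1 to 3 and to 65.2, 63.1 and 66.5 in SOX2 siRNA replicates 1 to 3, a ratio of means of 1.30. MMP2 and MMP14 made up 74.8, 77.2 and 76.7% of the control sums and 78.2, 78.5 and 76.4% of the SOX2 siRNA sums. The 19 ADAMTS genes summed to 26.0, 25.5 and 26.2 in control and 42.2, 42.4 and 45.6 in SOX2 siRNA libraries, a ratio of 1.68, and ADAMTS9 alone made up 33.3, 33.7 and 33.5% in control and 48.7, 49.9 and 52.8% after SOX2 siRNA. The 22 ADAM genes summed to 79.5, 82.3 and 82.8 in control and 80.3, 78.2 and 80.7 in SOX2 siRNA libraries, with overlap, and the 4 TIMP genes to 62.4, 57.4 and 62.5 and 65.0, 62.7 and 63.1. The ratio of the MMP to the TIMP sum was 0.819, 0.863 and 0.785 in control and 1.0, 1.01 and 1.06 in SOX2 siRNA libraries. These are transcript sums and say nothing of active enzyme.

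**Figure D4:**
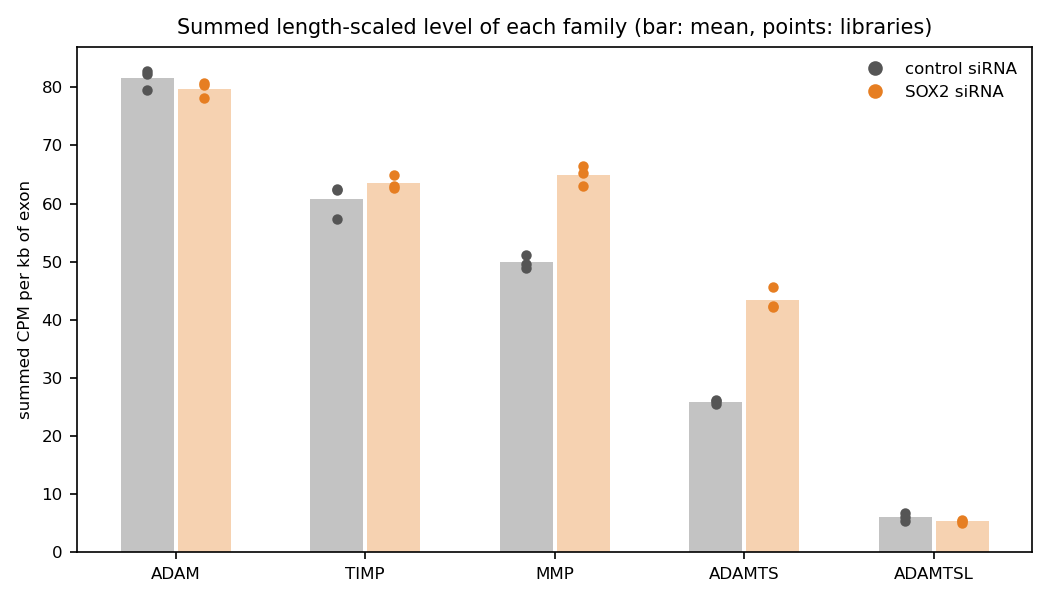
Summed CPM per kb of exon (vertical axis, from 0) of each family in control siRNA (grey) and SOX2 siRNA libraries (orange); bars are means and points are the 3 libraries of each group. The MMP and ADAMTS points separate by group, and the ADAM and ADAMTSL points overlap. The TIMP points also separate, by a narrow margin (62.47 in control replicate 3 and 62.74 in SOX2 siRNA replicate 2).

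Genes that activate, restrain, assist or are cut by these proteases were taken from 7 lists, of which 76 of 97 genes were tested. Of these, 25 were higher and 18 lower after SOX2 siRNA, 56.6% in all beside 28.2% of all tested genes, with a median log2 fold change of 0.02. The lists were chosen with earlier results of these data known, so this share cannot be read as an excess over all genes. Among activating proteases, 2 of 7 were higher and 3 lower. The proprotein convertases FURIN and PCSK7, which remove the prodomain of membrane-type MMPs and many ADAMs, had log2 fold changes of 0.23 and 0.20, and the plasminogen activators PLAU and PLAT of -0.56 and -0.26. Among other inhibitors and clearance genes, 3 of 10 were higher and 2 lower. RECK, a membrane-anchored inhibitor of MMPs, rose from 25.7 ± 0.431 CPM in control to 39.1 ± 0.347 CPM (SD, n = 3 each), and SERPINE2, an inhibitor of plasminogen activators and thrombin, rose from 56.4 ± 1.24 CPM in control to 101 ± 2.73 CPM (SD, n = 3 each). A2M, a protease-trapping plasma protein, fell from 324 ± 6.77 CPM in control to 168 ± 1.92 CPM (SD, n = 3 each), and the serine protease inhibitor TFPI2 fell from 9.29 ± 0.757 CPM in control to 5.25 ± 0.327 CPM (SD, n = 3 each).

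Of 12 tested ADAM cofactors and ligands, 4 were higher and none lower. Besides LGI1, these were RHBDF1, which carries ADAM17 to the cell surface (log2 fold change 0.42), and the tetraspanins TSPAN14 and TSPAN15, which do so for ADAM10 (0.42 and 0.28). The TSPAN15 call was lost without control replicate 2 or 3 or SOX2 siRNA replicate 1 (0.25, 0.22 and 0.24; edgeR adjusted p = 0.0732, 0.0982 and 0.0528). Of 6 tested genes of other metzincins and their enhancers, 3 were higher and 1 lower. The procollagen C-proteinase BMP1 and its enhancers PCOLCE and PCOLCE2 had log2 fold changes of 0.46, 0.39 and 0.19, the last lost without SOX2 siRNA replicate 2 (0.17, adjusted p = 0.0768). PAPPA, a protease of insulin-like growth factor binding proteins, fell from 266 ± 5.36 CPM in control to 171 ± 7.67 CPM (SD, n = 3 each).

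Of 13 tested membrane proteins that these enzymes shed, 4 were higher and 4 lower. The EGF-family ligand NRG1 fell from 11.1 ± 1.64 CPM in control to 4.67 ± 0.288 CPM (SD, n = 3 each), while the Notch ligand JAG1, the amyloid precursor APP and the syndecan SDC1 had log2 fold changes of 0.57, 0.21 and 1.03. Of 14 tested matrix substrates, 6 were higher and 5 lower. The proteoglycan VCAN, a main substrate of ADAMTS9, ADAMTS1 and ADAMTS4, fell from 1709 ± 89.4 CPM in control to 866 ± 27.5 CPM (SD, n = 3 each). COL4A1 and TNC had log2 fold changes of -1.04 and -1.23, and the fibrillar procollagen COL2A1 of 1.48. Of 14 transcription factors of the AP-1, ETS and RUNX families, which bind MMP promoters, 3 were higher and 3 lower. ETS1, ETV5 and ETV1 had log2 fold changes of 0.70, 0.50 and 0.34, and JUN of -0.37; FOS, FOSB, FOSL1, FOSL2, JUNB and JUND were not called. The edgeR adjusted p-values of the 28 related genes named from these lists ranged from 2.26e-15 (COL2A1) to 0.0177 (TSPAN15).

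**Figure D5:**
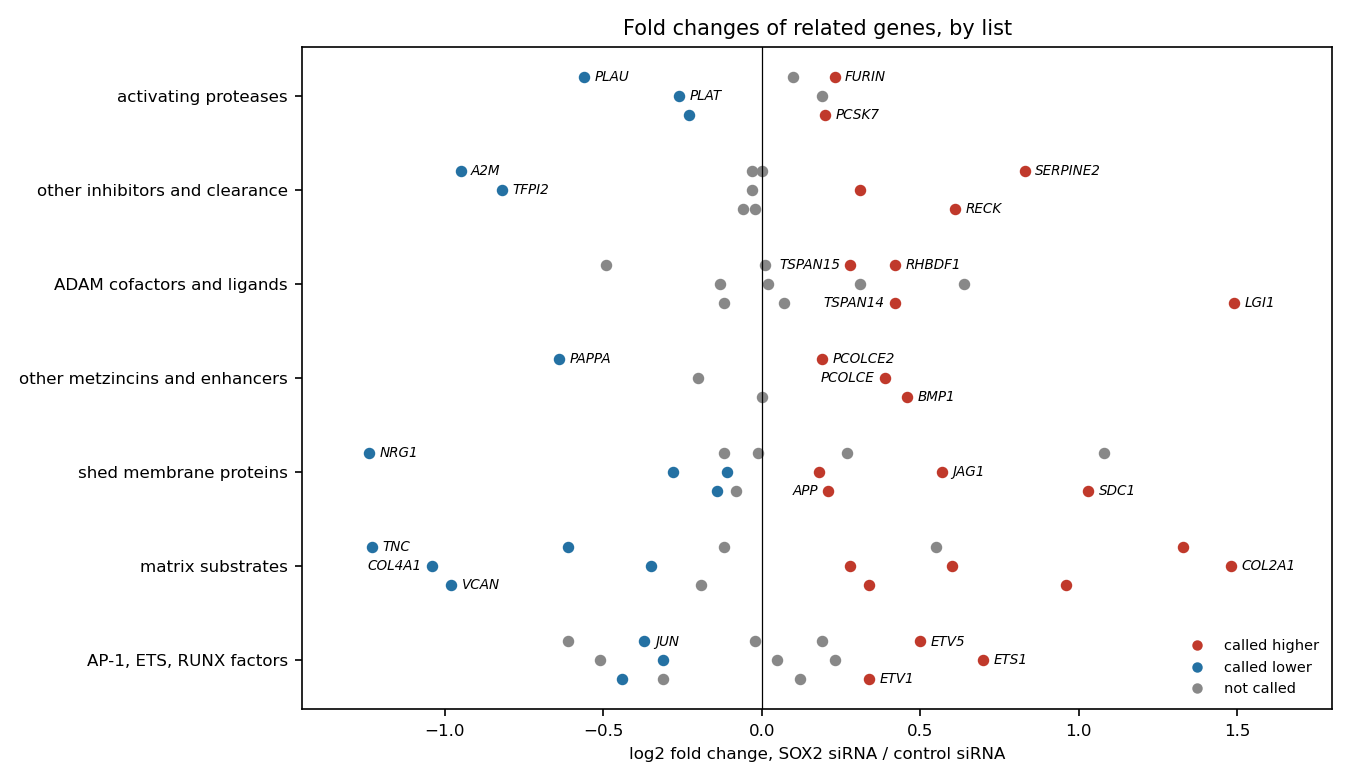
Log2 fold change (horizontal axis) of the 76 tested related genes in 7 lists; each point is 1 gene, staggered vertically within its list for legibility, red for called higher, blue for called lower and grey for not called. Names mark up to 4 called genes per list with the smallest p. Every list except ADAM cofactors and ligands holds called genes on both sides of 0.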

How the data were processed

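mRNA from 6 PA1 libraries was prepared with a KAPA mRNA kit, per the labels' protocols. The deposited table holds the authors' raw counts, whole numbers per gene symbol. Per the submitters' processing notes, bcl2fastq 2.20.0, STAR 2.7.3a, Salmon 0.14.1, DESeq2 1.28.1 and GRCh38.p13 were used, with no role or order given; whether the counts are rounded Salmon estimates, and whether strand was used, is not given in the sources used here. Columns were matched to libraries by their description label.

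Genes were kept by edgeR's filterByExpr (minimum count 10) on the whole table, scaled by TMM and tested with glmQLFit (robust=TRUE) and glmQLFTest for the group term. SE is the absolute log2 fold change divided by the square root of the F statistic of this test, so it is approximate. Benjamini-Hochberg adjustment ran over the 17592 genes tested, at a threshold of 0.05. R 4.3.3, edgeR 4.0.16, limma 3.58.1, DESeq2 1.42.0, Python 3.11.15 and matplotlib 3.10.9 were used. The biological coefficient of variation was 4.67%. The procedures were run on simulated counts with far fewer changed genes than were called here and the same dispersion for every gene. That run cannot give the error rate in these data. GENCODE 29 (GRCh38) gave positions, exon lengths and overlaps and need not be the authors' annotation; all 74 genes matched it. Promoter windows are from RefSeq.

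The genes and lists were chosen with earlier results of these data known. Named are all called genes of the families, the gene with the highest CPM of each functional class, all TIMP genes, untested genes reaching 10 counts, SOX2, and up to 4 called genes per related list by smallest p. The other tested and untested genes are given to account for every family member, and LYZ, EPCAM, L1TD1 and the epithelial genes in the closing section were chosen after their values were seen. Alternatives changed the scaling (total counts, upper quartile, DESeq2's size factors), the count filter, the test (limma-voom, the Wald test of DESeq2, a non-robust fit), the libraries (1 left out) or the model (a replicate block).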

Additional observations from a re-analysis of the deposited data

How the results depend on the processing

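Under the 15 alternatives the number of called protease and inhibitor genes ranged from 17 to 24, against 22 of 49 tested. DESeq2's Wald test gave 17 of 49, the fit with no count filter 24 of 65, and the replicate block 24 of 49. Over all genes these settings called 3923 of 17592, 5212 of 33956 and 5177 of 17592, against 4964 of 17592. Leaving out 1 library gave 20 to 22, of 49 or 50 tested. Across the 15 alternatives, 12 to 17 were called higher and 5 to 8 lower, against 16 and 6. Of the 22, 17 kept direction and call in every alternative that tested them. The other 5 (ADAM33, ADAMTS15, MMP23B, MMP15 and TIMP4) lost the call in 34 of their values, DESeq2's Wald test included, and none of the 329 values of called genes reversed. Of 27 uncalled genes, 8 were called under some alternative: ADAM9, ADAM15, ADAM22, ADAMTS3, ADAMTS20, ADAMTSL2, MMP9 and TIMP1. Reversed values all belonged to uncalled genes. With 1 library left out, the log2 fold change ranged from -0.02 to 0.03 for ADAM10, from -0.01 to 0.21 for ADAM21, from -0.33 to 0.16 for ADAM32, from -0.23 to 0.05 for ADAM8, from -0.09 to 0.18 for ADAMTS10, from -0.08 to 0.11 for ADAMTS13, from -0.07 to 0.16 for ADAMTS16, from -0.21 to 0.01 for ADAMTSL4, from -0.28 to 0.78 for MMP1, from -0.11 to 0.17 for MMP17. ADAM10 was also at -0.01 with upper-quartile scaling. The cause was not tested. Related genes called ranged from 39 of 77 tested (without control replicate 2 or SOX2 siRNA replicate 1) to 48 of 94 (no count filter), against 43 of 76. SOX2 ranged from -2.32 to -2.25. With the longest transcript as length, chosen after seeing the data, the MMP and ADAMTS ratios were 1.30 and 1.72.

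Both groups carry replicate numbers 1 to 3, whose meaning the labels do not give. The replicate block gave 24 calls, 17 higher and 7 lower, and the added ones were ADAM9 (0.12, edgeR adjusted p = 0.036) and TIMP1 (-0.12, adjusted p = 0.0481); 47 related genes were called, 27 higher and 20 lower, and SOX2 was at -2.28. Same-numbered libraries correlated at 0.0868, -0.0377 and -0.0311 in their deviations across genes, and not every library correlated best with its own number. Low counts limit the untested genes and the 12 tested genes with at most 52 counts in any library: ADAM21, ADAM28, ADAM32, ADAMTS5, ADAMTSL1, MMP1, MMP7, MMP9, MMP11, MMP23A, MMP24 and TIMP4. Of these, MMP7 and TIMP4 were called. MMP1, ADAM28 and MMP23A also spread widely between libraries of the same group, with SE of 0.886, 0.582 and 1.69, beside 0.252 for MMP9.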

Other observations

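A few genes of secretory epithelium, chosen after their values were seen, differed between libraries across both groups in the way MMP1 did. REG4, a secreted lectin of gut epithelium, had 335, 130 and 44 with control siRNA and 297, 28 and 169 with SOX2 siRNA (counts). TSPAN8 had 200, 97 and 14 with control siRNA and 180, 12 and 92 with SOX2 siRNA, CLCA1 had 213, 76 and 24 with control siRNA and 166, 16 and 111 with SOX2 siRNA and AGR2 had 82, 49 and 15 with control siRNA and 65, 6 and 56 with SOX2 siRNA. Control replicate 3 and SOX2 siRNA replicate 2 were the lowest libraries for each of these 4 genes, for LYZ, EPCAM and L1TD1, and for MMP1. They were not the 2 lowest for the other epithelial markers, KRT8, KRT18, KRT19, CDH1 and CLDN4. The share of all genes with this pattern was not counted. The pattern crosses the 2 groups, and its part in any fold change given above was not tested.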
